A study of Mus musculus with 8 samples.

Results

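Lymphatic endothelial nuclei of the adult mouse heart were described in single-nucleus RNA libraries, in which droplets capture single nuclei and each RNA molecule is counted once by its unique molecular identifier (UMI). A nucleus was taken as lymphatic when at least 3 of 6 genes (Reln, Mmrn1, Flt4, Prox1, Tll1 and Tc2n) had a UMI. It also had to show at least 200 genes, under 5% mitochondrial UMIs, under 2% of UMIs from the cardiomyocyte genes Ttn, Ryr2 and Trdn together, and 0 UMIs of Pdgfra, Csf1r and Rgs5, which mark fibroblasts, macrophages and pericytes. This gave 735 lymphatic nuclei out of 44839 barcodes in 5 libraries, or out of 14009 nuclei that met every condition except the 3 marker genes. The 735 nuclei held 2121356 UMIs, with a median of 2555 per nucleus (735 to 16935). Since the rule used the RNA of these nuclei, differences between them and other nuclei are given as descriptions, without a test.

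The libraries were labelled by sex and by genotype, as non-transgenic wild type (nTg) or as Tg-ccna2, a transgenic line that expresses cyclin A2 constitutively. Every library came from adult heart. The promoter of the transgene, the ages and any pooling of hearts are not given in the sources used here. The numbers of lymphatic nuclei were 116 in the library labelled nTg female 1, 206 in Tg female 1, 106 in Tg female 2, 170 in Tg male 1 and 137 in Tg male 2, and wherever 5 values are listed they follow this order. Of 8 labelled libraries, 3 labelled nTg (female 2 and both male ones) repeated the matrix of the Tg library with the same sex and number and differed in size from their own barcode lists, so these 3 were not used. Ccna2, the gene of the transgene, went against 2 labels. In nuclei with at least 2% cardiomyocyte UMIs it stood at 449, 0.448, 801, 219 and 145 CPM (UMIs of the gene scaled to the total of the summed nuclei), so that it was high in the library labelled nTg female 1 and near 0 in the library labelled Tg female 1. Genotype is therefore given by label only.

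Lymphatic vessels drain fluid, lipid and immune cells from the heart wall through blind-ended capillaries that empty into collecting vessels with valves. The transcription factor PROX1 sets lymphatic identity, and VEGFR3, the product of Flt4, receives the growth signals VEGFC and VEGFD. Reelin, made from Reln, is secreted by lymphatic endothelium in the heart and other organs. LYVE1, a hyaluronan receptor, is typical of lymphatic capillaries, and CCL21 guides dendritic cells and T cells into them.

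The 250 bases before the RefSeq start of 3 of the choosing genes are shown because the nuclei were picked by their transcripts. Capitals mark GGAA or its reverse complement TTCC, the core of sites bound by ETS factors, a family that is active throughout endothelium. The Prox1 window lies at chr1:190170828-190171077 (minus strand, the more upstream of 2 starts), the Flt4 window at chr11:49609429-49609678 (plus strand) and the Reln window at chr5:22344706-22344955 (minus strand), all in GRCm38.
Prox1: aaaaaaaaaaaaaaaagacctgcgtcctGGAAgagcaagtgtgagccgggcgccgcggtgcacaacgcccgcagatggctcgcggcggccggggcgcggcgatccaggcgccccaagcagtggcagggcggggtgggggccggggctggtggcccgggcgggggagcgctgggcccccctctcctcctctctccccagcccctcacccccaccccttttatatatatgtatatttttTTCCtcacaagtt
Flt4: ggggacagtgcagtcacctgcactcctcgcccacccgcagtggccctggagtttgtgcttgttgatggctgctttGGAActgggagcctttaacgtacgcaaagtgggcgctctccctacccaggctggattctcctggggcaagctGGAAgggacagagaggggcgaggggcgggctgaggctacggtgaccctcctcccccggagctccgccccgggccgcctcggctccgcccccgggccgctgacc
Reln: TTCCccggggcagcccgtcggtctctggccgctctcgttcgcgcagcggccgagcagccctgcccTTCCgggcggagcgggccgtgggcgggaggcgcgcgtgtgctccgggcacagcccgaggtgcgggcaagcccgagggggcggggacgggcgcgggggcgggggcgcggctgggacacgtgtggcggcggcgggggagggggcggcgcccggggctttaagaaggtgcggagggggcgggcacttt
Each of these 3 windows held 2 ETS cores, and 93.45% of 32851 RefSeq windows of the same length held at least 1. The SOX core AACAAT or ATTGTT, searched because SOX18 acts upstream of Prox1 in development, was in none of the 3 and in 9.424% of all windows. A match is a run of letters and not a bound site.

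The choosing genes were detected unevenly among members. Reln had a UMI in 96.9% of lymphatic nuclei, Mmrn1, a secreted matrix protein, in 92.2%, Flt4 in 78.6%, Prox1 in 76.9%, the protease gene Tll1 in 57.1% and Tc2n in 54.4%. In capillary nuclei, taken as those with at least 3 of Flt1, Kdr, Cd36, Gpihbp1, Car4 and Rgcc, the shares were 0.785% for Reln, 0.493% for Mmrn1, 12.4% for Flt4, 1.72% for Prox1, 3.12% for Tll1 and 0.329% for Tc2n. The median depth was 2555 UMIs in lymphatic and 2042 in the 5477 capillary nuclei. Reln stood at 2817, 3252, 2215, 4492 and 4206 CPM, and Prox1 at 902, 992, 877, 688 and 745 CPM. Reln was lower in all 3 female libraries than in both male ones, and Prox1 ran the other way. Neither was called in the test of sex in the 4 Tg libraries. The size of the Reln difference (female minus male, log2) moved with the female library left out. It was -1.01 without Tg female 1 and -0.434 without Tg female 2, and for Prox1 it was 0.258 and 0.456. The rule used both genes, so these values are descriptions. In those libraries 34.4% of the 7747 genes tested had no overlap between the sexes.

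The label was checked with 15 lymphatic genes that the rule did not use, among them Lyve1, Pdpn, Ccl21a and Maf. Their summed level was 934 CPM in nuclei with none of the 6 choosing genes, 979 CPM with 1, 1627 CPM with 2, 6401 CPM with 3, 9221 CPM with 4, 10117 CPM with 5 and 11783 CPM with 6. The step thus lay between 2 and 3 genes, where the rule has its threshold. The 183 nuclei just outside it had 122 CPM of Ccl21a, 75.7 CPM of Lyve1 and 102 CPM of Maf, and the 118 just inside had 2076 CPM, 436 CPM and 683 CPM. Flt1, a receptor gene of blood capillaries, ran the other way, at 1276 CPM with 2 genes and 378 CPM with 3, as did Npr3, an endocardial gene, at 432 and 83.6 CPM. The plot of identity genes by marker number shows the same step in each library.

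**Figure D1:**
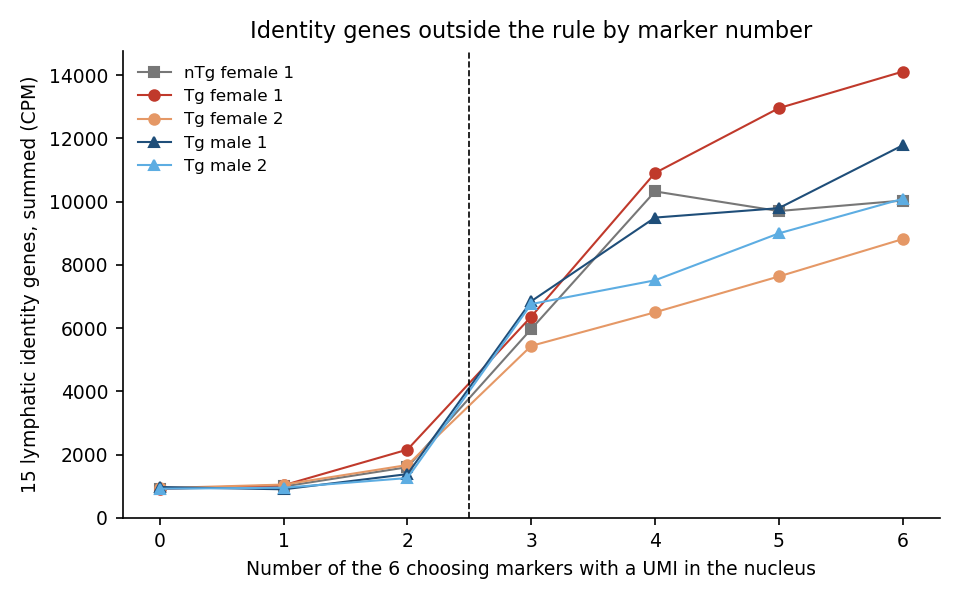
Summed level of 15 lymphatic identity genes outside the rule (CPM, vertical axis) against how many of the 6 choosing genes had a UMI in the nucleus (horizontal axis), with 1 line per library; the dashed line is the threshold. Over the 5 libraries the sum goes from 1627 CPM at 2 genes to 6401 CPM at 3.

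Markers of other cells were low but not absent. Summed over 10 genes each, cardiomyocyte markers came to between 1616 and 2369 CPM across the 5 libraries, fibroblast markers to between 888 and 1730 CPM with 9 of 10 detected, macrophage markers to between 191 and 297 CPM with 8 of 10 detected, and pericyte and smooth muscle markers to between 64.8 and 180 CPM. The highest of the fibroblast genes was Pcsk6 (617 ± 47.4 CPM, SD, n = 5) and that of the macrophage genes Mrc1 (195 ± 36.0 CPM, SD, n = 5), and both were above their capillary levels of 84.1 and 31.5 CPM. Pdgfra, Csf1r and Rgs5 were at 0 by the rule. Ttn, Ryr2 and Trdn are in the cardiomyocyte list and were limited by the rule, so that sum was partly set by it. The mean cardiomyocyte sum was 2054 CPM, against 2843 CPM in capillary nuclei under the same limits. The fibroblast (1154 against 854 CPM), macrophage (262 against 235 CPM) and pericyte and smooth muscle (130 against 121 CPM) sums were above the capillary means. Of the 735 nuclei, 109 also met the capillary definition, and 6 met the endocardial one (at least 3 of Npr3, Nrg1, Tmem108, Smoc1, Cytl1 and Plvap). In the 4 libraries where the doublet caller worked, 43 of 629 lymphatic nuclei (6.84%) were called, against 8.93% of all nuclei that passed the gene and mitochondrial limits; it called none in Tg female 2. Between libraries, 198 barcodes recurred, none of them in 2 lymphatic nuclei. Tg female 2 stood apart, with the highest levels of the fibroblast-enriched genes Dcn (329 CPM, against 68.0 to 127 CPM elsewhere) and Gsn (380 CPM, against 88.1 to 166 CPM) and the lowest of Ccl21a and Lyve1. The part of these in the results was not tested.

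Of 15 identity genes, 13 were higher in lymphatic than in capillary nuclei, none was lower, and the median log2 ratio was 4.94. A gene counted as higher or lower when the class means differed at least 2-fold and no library of one class overlapped the other. By that rule 7.98% of 10981 genes with 10 CPM or more in either class were higher and 7.98% were lower, with a median log2 ratio of 0.00481. The 13 to 0 split was the same against the 796 endocardial nuclei, where 7.22% of 11014 genes were higher and 6.07% lower. The rule chose these nuclei on linked transcripts, so the counts describe the class and carry no test.

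Ccl21a, the chemokine gene, was the highest of the identity genes at 3614, 5886, 1663, 3592 and 3038 CPM. Its mean of 3559 ± 1524 CPM (SD, n = 5) was 165-fold above the capillary mean of 21.6 CPM, and the Tg female 2 value was the lowest. Near-identical copies of this gene exist, and the 1 gene model that received UMIs may hold reads of several. Lyve1 stood at 773, 720, 395, 736 and 813 CPM, against 11.1 CPM in capillary and 153 CPM in endocardial nuclei. Maf, a transcription factor of lymphatic endothelium, was even across libraries at 1189, 850, 1029, 1022 and 992 CPM, against 24.9 CPM in capillary nuclei. Pdpn, the surface glycoprotein podoplanin, was lower in level but as separate, at 97.2, 171, 133, 140 and 143 CPM against 3.49 and 5.83 CPM. Tbx1, a transcription factor that acts on Flt4 in lymphatic development, reached 227 ± 71.3 CPM (SD, n = 5) against 1.28 CPM in capillary nuclei, and had 0 UMIs in endocardial nuclei, at least 179.9-fold lower by a floor of 3 counts over that class. Nr2f2, a venous and lymphatic transcription factor, was at 462 CPM against 66.7 and 192 CPM. The 2 identity genes that did not separate from capillary nuclei were Nrp2, the VEGFC co-receptor (966 against 626 CPM), and Sox18 (27.8 against 34.7 CPM).

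The highest lymphatic transcript after Malat1 was Wdr17, at 7656, 8603, 9898, 8468 and 7702 CPM, a gene chosen here after its values were seen. It was at 104 CPM in capillary nuclei, but endocardial nuclei had 7938 ± 902 CPM (SD, n = 5), so it separated both of these classes from the capillary one and not from each other. Wdr17 spans 258 kb on chromosome 8 (54629055 to 54887184, minus strand), and per kilobase of gene it ranked at number 119 in lymphatic nuclei, while Ccl21a, of 1.13 kb, ranked at number 7. In nuclear RNA introns can add UMIs to long genes, but whether introns were counted here is not given. Both ranks are therefore given, and the part of gene length was not tested.

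**Figure D2:**
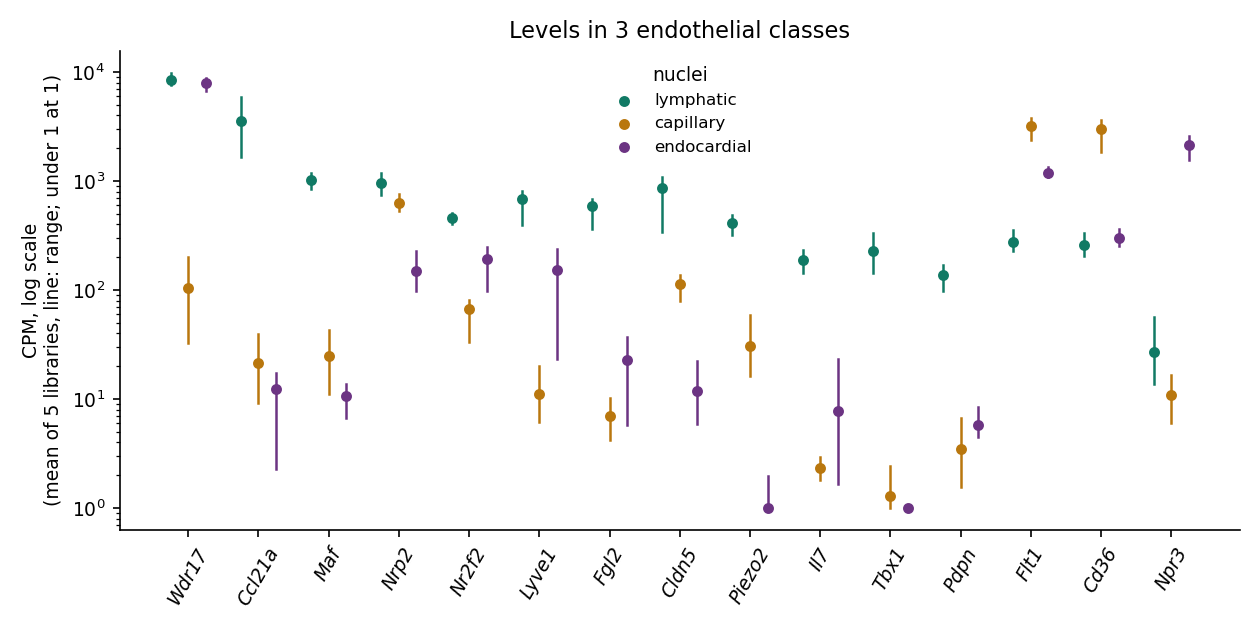
Level (CPM, log scale) of 15 genes in lymphatic, capillary and endocardial nuclei; points are means of 5 libraries, lines run from the lowest to the highest library, and values under 1 are drawn at 1. Lyve1 has 687 CPM in lymphatic nuclei against 11.1 and 153 CPM, while Wdr17 is as high in endocardial nuclei.

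Flt4 apart, which the rule used, growth factor genes went both ways against capillary nuclei. Of 25 genes of VEGFC and growth-factor signalling considered, 3 were higher (12%) and 7 lower (28%), with a median log2 ratio of -0.23. Over all genes considered, 7.98% were higher and 7.98% lower. The ligand gene Vegfc was almost lacking in lymphatic nuclei, at 21.6, 36.3, 31.3, 32.7 and 17.6 CPM, and capillary nuclei held 431 CPM (337 to 651), 15.5-fold more. Vegfd, the second VEGFR3 ligand, was 50.2 CPM against 7.30 CPM in capillary and 120 CPM in endocardial nuclei. Kdr, the gene of VEGFR2, was at 471 ± 50.1 CPM (SD, n = 5), within the capillary range of 422 to 642 CPM and above the 64.0 CPM of endocardial nuclei. Kdr and Flt1 both belong to the rule that defined the capillary class, so the Flt1 difference was partly set by that rule. Flt1 (273 against 3214 CPM) and Nrp1, a VEGFA co-receptor (118 against 1340 CPM), were low in every lymphatic library. Angpt2, a ligand of TIE2 that acts in lymphatic remodelling, was higher at 165, 138, 247, 169 and 159 CPM against 78.7 CPM, while Tek, the gene of TIE2, was 229 against 491 CPM.

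Genes of valves and collecting vessels were more often higher than lower, 9 against 3 of 19, with a median log2 ratio of 0.85 to capillary nuclei. Against endocardial nuclei 6 were higher and 4 lower of 20, and the list summed to 3059 CPM in lymphatic and 3173 CPM in endocardial nuclei. The shares of all genes considered were 7.98% each way against capillary nuclei, and 7.22% higher and 6.07% lower against endocardial nuclei. Itga9 is in this list and also in the identity and matrix lists. Sema3a, which guides vessel and nerve growth and acts in valve formation, was at 627, 542, 587, 584 and 524 CPM, 30.6-fold above the capillary mean of 18.7 CPM. Piezo2, a mechanically gated channel gene, was at 486, 386, 317, 415 and 478 CPM against 30.9 CPM in capillary nuclei and 2 UMIs in all endocardial nuclei. Celsr1, a planar polarity gene, was 47.8 against 0.822 CPM, and Nfatc1 was 166 against 68.8 CPM. The valve regulator Foxc2 was sparse, at 13.7 CPM with a UMI in 29 of 735 nuclei, and still above the capillary 0.968 CPM. Gata2, Eng and Fat4 were the 3 genes lower than in capillary nuclei.

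Among genes of cell junctions, 2 were higher (13.3%) and 4 lower (26.7%) of 15 against capillary nuclei. Over all genes considered, 7.98% went each way. Cldn5, the main claudin of endothelial tight junctions, was at 1097, 858, 344, 1059 and 936 CPM, with Tg female 2 lowest, and at 113 CPM in capillary and 11.8 CPM in endocardial nuclei. Cgnl1, a junction scaffold gene, was at 236 CPM against 110 CPM in capillary nuclei, but endocardial nuclei had 1934 CPM. Esam (36.8 against 348 CPM) and Jam2 (49.5 against 558 CPM), 2 adhesion molecules of blood vessel junctions, were low, and Jam3 and Afdn were the other lower genes. Cdh5, VE-cadherin, was at 342 CPM against 681 CPM.

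Genes of immune cell traffic had 7 higher and 3 lower of 16 against capillary nuclei, and 8 higher and 1 lower of 15 against endocardial nuclei. Of all genes considered, 7.98% went each way against capillary nuclei, and 7.22% were higher and 6.07% lower against endocardial nuclei. Ccl21a, Lyve1, Stab1 and Ackr2 are also identity genes and were already counted as higher than in capillary nuclei there. Il7, the survival cytokine of T cells, stood at 151, 235, 176, 142 and 229 CPM, 80.0-fold above the 2.34 CPM of capillary nuclei. Tnfrsf11a, the gene of the receptor RANK, was at 210 ± 19.4 CPM (SD, n = 5) against 20.7 CPM, and Ackr2, a scavenging chemokine receptor of lymphatic endothelium, averaged 111 CPM. Mrc1, the mannose receptor that lymphatic endothelium shares with macrophages, was at 208, 235, 211, 181 and 141 CPM. Csf1r was at 0 in these nuclei by the rule. Cxcl12 ran the other way, at 30.6 CPM against 348 CPM in capillary nuclei, and Cd274 and Cd200 were the other lower genes.

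Reln is a choosing gene, so its high level was partly set by the rule, while reelin receptor genes were low in CPM. These levels were not scaled to gene length. Vldlr was at 19.3 CPM, Lrp8 at 3.24 CPM (7 UMIs in all) and the adaptor Dab1 had 2 UMIs. Integrin subunit genes that also take part in reelin binding were present, with Itgb1 at 513 CPM and Itga3 at 21.5 CPM. Neither direction was met by any of the 5 pathway genes considered, and 7.98% of all genes met each against capillary nuclei. Among matrix and anchoring genes, 5 were higher and 4 lower of 16. Lama4, a laminin chain of vessel basement membrane, was at 1291, 1511, 1256, 1087 and 1188 CPM against 466 CPM, Fbln5 at 172 CPM against 47.6 CPM, and Emilin1, which anchors lymphatic endothelium to elastic fibres, at 65.4 CPM against 29.1 CPM. Itga9, the integrin subunit of lymphatic valves, was at 755 CPM against 166 CPM, and Itgb4 was the other higher gene.

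Fatty acid uptake genes were lower than in capillary nuclei. Of 16 lipid genes, 7 were lower than there and 1 higher, while against endocardial nuclei 2 were lower and 5 higher, with a median log2 ratio of 0.36. For all genes considered, 7.98% went each way against capillary nuclei, and 6.07% were lower and 7.22% higher against endocardial nuclei. Cd36 was at 208, 230, 203, 334 and 310 CPM against 3015 CPM (1838 to 3652), and Lpl, lipoprotein lipase, at 142 against 1034 CPM. Fabp4 was at 200 CPM against 1519 CPM. Cd36 and Gpihbp1 belong to the capillary rule. The gene higher than in capillary nuclei was Abca1, the exporter of cellular cholesterol, at 505, 407, 497, 490 and 529 CPM against 94.7 CPM in capillary and 154 CPM in endocardial nuclei.

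Notch and BMP genes were mostly lower, with 9 lower and 1 higher of 15 against capillary nuclei, 8 lower and 2 higher against endocardial nuclei, and median log2 ratios of -1.70 and -1.31. Among all genes considered, 7.98% went each way against capillary nuclei, and 6.07% were lower and 7.22% higher against endocardial nuclei. Bmp6 was at 148 CPM against 939 CPM in capillary and 1371 CPM in endocardial nuclei. Smad6 (8.97 against 112 and 485 CPM) and Smad7 (21.4 against 245 and 377 CPM), inhibitors that BMP and TGF-beta signals induce, were low against both. Notch4, Dll4, Jag2, Hey1, Id1 and Id3 made up the other lower genes against capillary nuclei. Tgfbr2, the type II TGF-beta receptor, was the higher gene, at 632, 606, 446, 496 and 574 CPM against 123 CPM. Genes shared by all endothelium were present, all 10 of 10 detected, but 5 of 10 were lower than in capillary nuclei, and Pecam1 was at 616 CPM against 971 CPM.

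Several genes outside these lists separated the classes more widely. Pld5, a phospholipase D family member, was at 224, 251, 157, 254 and 232 CPM and 0.665 CPM in capillary nuclei, a 336-fold ratio. Apba2 (303 CPM, 180-fold), Dtx1, a Notch-pathway ubiquitin ligase (127 CPM, 136-fold), Nrcam, a cell adhesion gene better known from neurons (122 CPM, 114-fold), and Kif26b (232 CPM, 70.9-fold) followed. Slc45a3, Tnfaip8l3 and the transcripts 2600014E21Rik, Gm17171 and Gm16685, together with Tbx1 and Il7, completed the 12 that the naming rule gave. Lower than in capillary nuclei were Dach1, a transcription factor of coronary vessels (138 against 2101 CPM), Myo10 (53.1 against 866 CPM), the nucleoside transporter Slc28a2 (12.7 against 310 CPM), Lims2 (88.5 against 1105 CPM), Ifi203 (37.7 against 534 CPM) and Aqp7 (5.11 against 97.2 CPM), besides Vegfc and Gm29007. Against endocardial nuclei, Fgf12 (236 against 1.88 CPM), Adam12 (262 CPM, with 1 UMI in that class) and Gm10475 (346 CPM, with 0 UMIs, at least 274.6-fold) joined Ccl21a, Maf and Piezo2 on the higher side. Cdh11 (13.4 against 1333 CPM), Npr3, Tmem108, Enpp6, Col4a4 and Pla2g4a were lower in lymphatic nuclei. Npr3 and Tmem108 belong to the rule that defined the endocardial class, so their place here was partly set by that rule.

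Lymphatic nuclei were not uniform in Lyve1. A Lyve1 UMI was present in 451 nuclei (61.4%), and by library in 72.4%, 65.05%, 45.3%, 60% and 60.6%. With each nucleus thinned to 1000 UMIs, which left out 4 shallower nuclei (2 each in Tg female 1 and Tg female 2), the shares were 48.3%, 40.7%, 34.6%, 45.3% and 40.9%. Capillary nuclei, where Lyve1 is background, gave 1.81% unthinned and 0.755% thinned. Nuclei with a Lyve1 UMI were somewhat deeper, with a median of 2664 UMIs against 2329 in the 284 nuclei without. They also had more of the 6 choosing genes detected, with a median of 5 against 4. Lyve1 itself rose with that number, from 436 CPM in members with 3 choosing genes to 864 CPM with 6. The side without Lyve1 thus also held members with weaker marker detection, and the part of this in the split was not tested. Among 4572 genes at 50 CPM or more on either side, 25 were at least 2-fold higher with no overlap between libraries (0.547%) and 37 were lower (0.809%). The split uses only Lyve1, but detection of any gene rises with depth, and neither list was tested.

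Nuclei with Lyve1 had more Piezo2, at 545 ± 66.3 CPM against 181 ± 58.3 CPM (SD, n = 5 libraries each), and more Mrc1, at 266 ± 69.3 against 82.0 ± 27.2 CPM. Fndc1 (544 against 220 CPM), Dysf, a membrane repair gene (545 against 247 CPM), the organic anion transporter gene Slco2b1 (321 against 124 CPM), Adgrg3 (398 against 162 CPM), Pld5 (282 against 116 CPM) and Emilin1 (84.2 against 34.5 CPM) were on the same side. Ccl21a was 2.997-fold higher with Lyve1 (4593 against 1533 CPM) and higher in 5 of 5 libraries, but its ranges overlapped between libraries. The largest of the higher ratios included Cacna1c (209 against 47.1 CPM), for which 191 of 323 UMIs lay in called doublets in the 4 libraries where the caller worked.

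Nuclei without Lyve1 had more of the transcription factor gene Foxp2, known from lymphatic collecting vessels, at 840 ± 292 CPM against 245 ± 64.6 CPM (SD, n = 5 libraries each), from 969 UMIs spread over 291 nuclei. Cacna1e, a voltage-gated calcium channel gene, was at 422 ± 197 against 70.2 ± 45.1 CPM. Clca3a1, the gene of a surface antigen of lymphatic endothelium, was at 593 against 232 CPM, Glis3 at 686 against 316 CPM, Bmp4 at 80.3 against 13.1 CPM, Adm, the gene of adrenomedullin, at 68.4 against 10.95 CPM and the VEGFR3 ligand gene Vegfd at 87.1 against 29.7 CPM. Among the choosing genes, Prox1 was at 868 CPM with and 807 CPM without Lyve1. Reln (3958 against 2332 CPM), Mmrn1 (2338 against 1433 CPM), Flt4 (879 against 620 CPM) and Tc2n (580 against 357 CPM) were higher with Lyve1 in 5 of 5 libraries, and Tll1 (794 against 853 CPM) in 2 of 5. The rule used these genes, and the sides differed in how many were detected, so these levels are a description and no support for the split. Of the valve genes, Cldn11 was higher without Lyve1 in 5 of 5 libraries (34.4 against 6.80 CPM, 35 UMIs in all), and Gata2 (68.4 against 23.4 CPM) and Nfatc1 (237 against 134 CPM) in 4 of 5, and none of the 3 met the no-overlap rule.

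**Figure D3:**
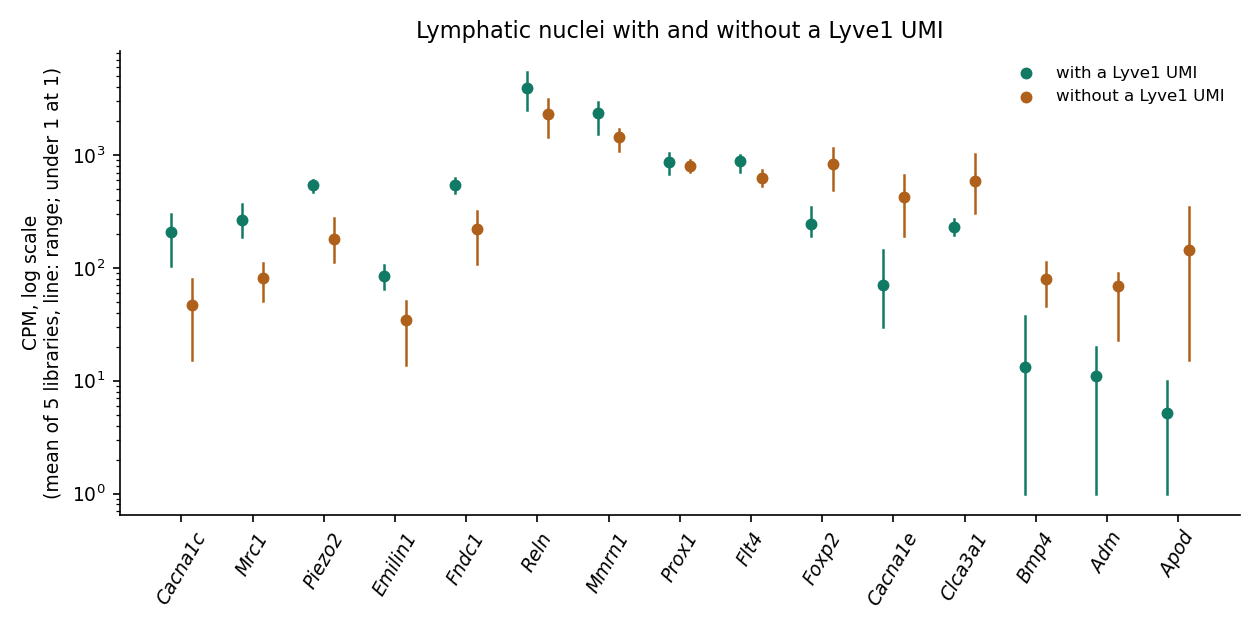
Level (CPM, log scale) of 15 genes in lymphatic nuclei with and without a Lyve1 UMI; points are means of 5 libraries, lines run from the lowest to the highest library, and values under 1 are drawn at 1. Piezo2 and Mrc1 lie higher with Lyve1 and Foxp2 and Cacna1e higher without. Prox1 (868 and 807 CPM) lies closer together than Reln (3958 and 2332 CPM), another choosing gene. The rule used both, so their levels are no support for the split.

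The share of lymphatic nuclei did not separate the sexes. Of gated nuclei, 5.24% (4.35 to 6.25), 5.62% (4.89 to 6.41), 4.04% (3.32 to 4.87), 5.60% (4.81 to 6.48) and 5.55% (4.68 to 6.52) were lymphatic, with exact 95% binomial intervals that cover counting error only. Tg female libraries averaged 4.83% ± 1.11 and Tg male libraries 5.57% ± 0.0400 (SD, n = 2 each), a difference of -0.747 points (exact permutation test, two-sided, p = 1; the smallest p that 2 against 2 allows is 0.333). Without Tg female 2 the difference was 0.0413 points. Thinned to 1000 UMIs the shares were 3.21%, 3.56%, 2.34%, 3.28% and 3.05%. Among lymphatic, capillary and endocardial nuclei together, lymphatic nuclei made up 8.64%, 12.6%, 11.2%, 10.1% and 9.74%, and both Tg female libraries were then above both male ones by a mean of 2.00 points (exact permutation p = 0.333). Of all nuclei passing the gene and mitochondrial limits the difference was -0.252 points (exact permutation p = 0.667). A share of nuclei does not tell the number of vessels, and the release and capture of nuclei by type was not measured.

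**Figure D4:**
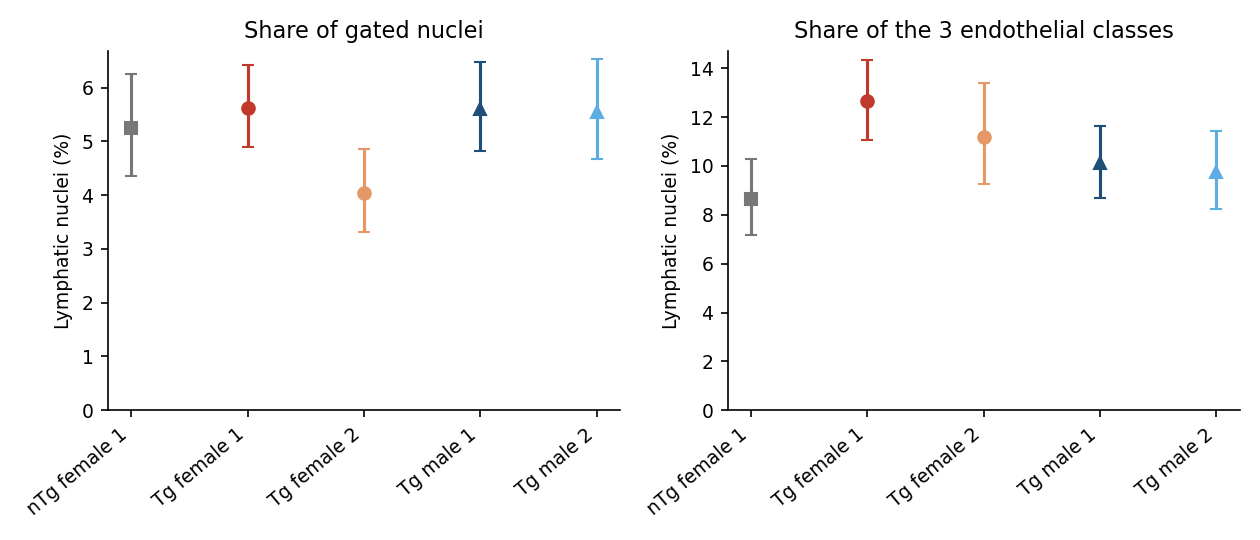
Lymphatic nuclei as a percentage of gated nuclei (left) and of the 3 endothelial classes (right) in each library, with exact 95% binomial intervals for counting error. On the left Tg female 2 is lowest at 4.04%, and on the right the library labelled nTg female 1 is lowest at 8.64%.

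Sex was tested in the summed counts of the 2 Tg female and 2 Tg male libraries with edgeR's quasi-likelihood test over 7747 genes, and 10 genes passed an adjusted p of 0.05 (0.129%), 3 higher in female (0.0387%) and 7 higher in male nuclei (0.0904%). At an unadjusted p under 0.05 there were 436 genes (5.63%), and 2666 (34.4%) had no overlap between the sexes. The labels do not say that the libraries of a group came from separate animals, so p-values measure only the spread between these libraries. All are labelled Tg, but Ccna2 in nuclei with at least 2% cardiomyocyte UMIs was 0.448 CPM in Tg female 1. It was 801, 219 and 145 CPM in Tg female 2, Tg male 1 and Tg male 2. In every comparison of sex here the transgene may thus differ as well, and its part cannot be told apart from that of sex. The count moved to 141 without Tg female 1, 94 without Tg female 2, 34 without Tg male 1 and 5 without Tg male 2, fits in which the lone library of 1 sex is assumed to vary like the pair of the other. With each nucleus capped at 3 UMIs a gene, 19 genes passed, 8 of them among the 10.

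Sex-linked genes came first. Xist, the RNA that coats the inactive X chromosome, was at 1191, 1544, 1131, 0 and 0 CPM, so the 3 female libraries lay far above the male ones (log2 difference 12.2, edgeR adjusted p = 1.26e-06; at least 409.2-fold by a floor of 3 counts over the group). Tsix, the antisense partner of Xist, was at 805, 999, 1041, 1.92 and 0 CPM, and its reads may not be told apart from those of Xist. The Y-linked genes Uty (0, 0, 0, 259 and 214 CPM), Eif2s3y (115 and 85.6 CPM in male libraries), Ddx3y (80.7 and 78.0 CPM) and Kdm5d (48.0 and 62.9 CPM) had 0 UMIs in all 3 female libraries. Kdm5d lost its call without Tg male 2 (edgeR adjusted p = 0.195). Kdm5c, an X-linked gene that escapes inactivation, stood at 138, 204, 149, 78.8 and 42.8 CPM and missed the threshold (edgeR log2 difference 1.52, SE 0.315, adjusted p = 0.156). It passed under 8 of 15 alternative settings, among them leaving out Tg female 1, Tg female 2 or Tg male 1, with adjusted p from 4.93e-06 to 1.00.

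Zbtb16, the gene of the transcription factor PLZF and a target of glucocorticoid receptors, was lower in female nuclei. It stood at 781, 336, 387, 1035 and 1100 CPM, with both Tg female libraries below both male ones and the library labelled nTg female 1 in between (edgeR log2 difference -1.59, SE 0.202, adjusted p = 0.00673). Its UMIs came from 500 of the 735 nuclei. It passed in 13 of 15 alternatives and was lost without Tg male 2 and when the nTg library joined the female group without a genotype term (highest adjusted p = 0.488). In capillary nuclei Zbtb16 was at 1716, 391, 650, 1858 and 1705 CPM, with a sex difference of -1.86 (edgeR adjusted p = 0.0590).

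Of 12 glucocorticoid response genes, 10 were tested and Zbtb16 alone was called. At an unadjusted p under 0.05, 5 were higher in male and none in female nuclei, and the median log2 difference was -0.75, against 0.0036 over all genes. The 12 genes summed to 2550, 1547, 1769, 2985 and 2975 CPM in lymphatic nuclei. The sums were 3665, 1488, 1949, 3821 and 3595 CPM in capillary nuclei. In endocardial nuclei they were 2574, 953, 1752, 3524 and 2982 CPM, so the pattern was not particular to lymphatic nuclei. Fkbp5, the chaperone gene that glucocorticoids induce, stood at 521, 182, 329, 699 and 591 CPM (edgeR log2 difference -1.41, SE 0.269, adjusted p = 0.0932) and missed the threshold. It passed under 9 of 15 alternative settings, with edgeR or DESeq2 adjusted p from 2.23e-11 to 0.772; these included leaving out Tg female 1 (-1.01) or Tg female 2 (-1.84) and capping each nucleus (-1.11). Tsc22d3, which encodes GILZ, stood at 105, 51.9, 47.0, 133 and 111 CPM (edgeR log2 difference -1.30, adjusted p = 0.221), and passed under 3 of 15, among them without Tg female 2 (-1.25, adjusted p = 0.0326). Ddit4 (edgeR log2 difference -0.94) and Klf9 (-0.74) were the other genes, with edgeR adjusted p of 0.652 and 0.721, and Klf9 passed without Tg female 1 (-1.33, adjusted p = 0.00705). In all 5, the library labelled nTg female 1 lay nearer to the male libraries, and with 1 such library its animal, genotype and handling cannot be told apart.

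Cacna1a, a calcium channel subunit gene, was higher in Tg female nuclei, at 18.9, 93.5, 102, 13.4 and 22.7 CPM (edgeR log2 difference 2.43, SE 0.385, adjusted p = 0.0334). Its UMIs came from 40 and 19 nuclei in the Tg female libraries and from 7 and 6 in the male ones, with at most 3 in a nucleus. The library labelled nTg female 1 was at the male level. The call held in 10 of 14 alternatives and was lost without Tg male 2, with at least 4 choosing markers, with the nTg library in the female group and in DESeq2 (highest adjusted p = 0.648).

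Apod and Kcnd2 were called higher in male nuclei on few nuclei. Apod, a lipocalin gene, was at 51.3, 8.65, 7.83, 69.2 and 123 CPM (edgeR log2 difference -3.47, SE 0.503, adjusted p = 0.0178), but its male UMIs were 36 in 8 nuclei and 49 in 5 nuclei, 32 of them in 1. With capped nuclei its adjusted p was 0.608. Across all libraries 103 of 111 Apod UMIs lay in nuclei without Lyve1. Kcnd2, a potassium channel gene, was at 2.70, 10.4, 7.83, 88.4 and 68.0 CPM (edgeR log2 difference -3.02, SE 0.449, adjusted p = 0.0203), and its male UMIs were 46 in 6 nuclei and 27 in 4, of which 21 and 25 lay in called doublets. Without the 1 nucleus that held the most, the male levels were 48.6 and 7.79 CPM. Kcnd2 fell below the filter once nuclei were capped or doublets removed. Neither gene passed without Tg male 2.

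**Figure D5:**
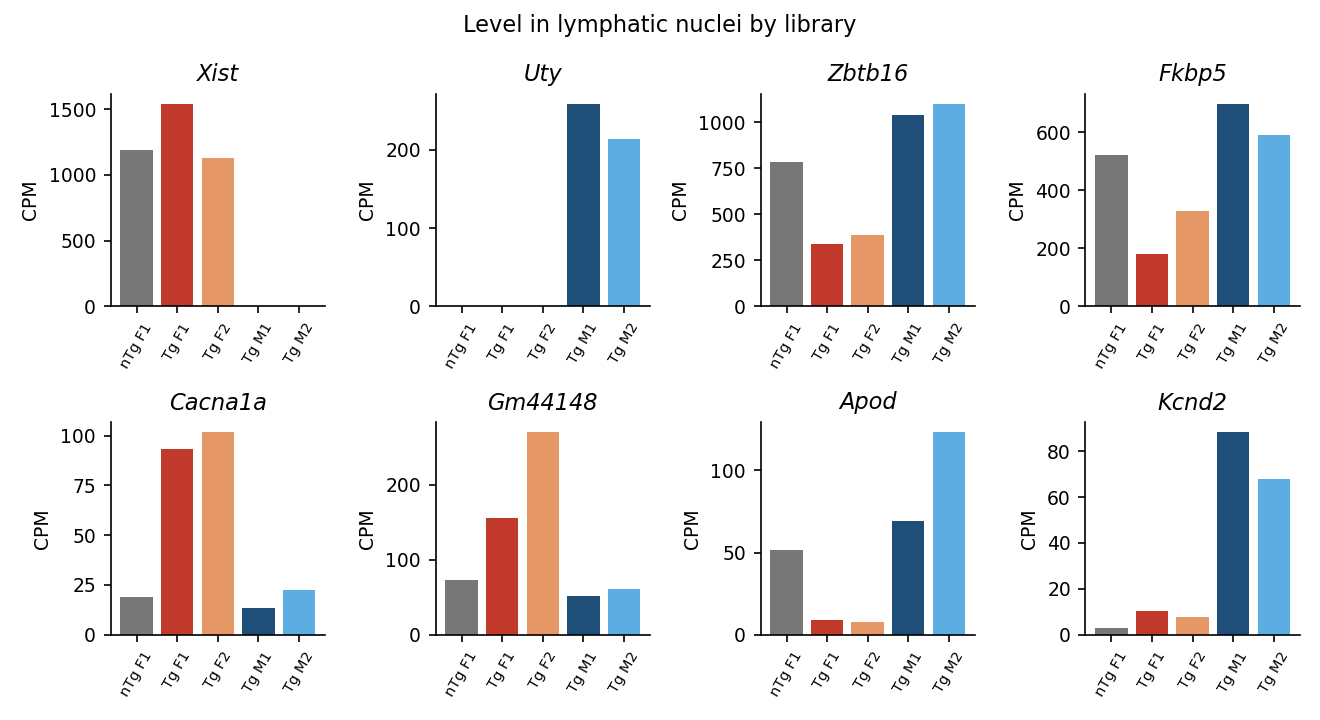
Level (CPM, linear scale from 0) of 8 genes in lymphatic nuclei, with 1 bar per library. Zbtb16 and Fkbp5 are lower in both Tg female libraries than in the other 3, Cacna1a and Gm44148 higher, and the Apod and Kcnd2 bars rest on few nuclei.

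No identity gene passed by sex in the 4 Tg libraries, but this rested on which female libraries were in. None of the 15 identity genes, 13 valve genes, 14 immune traffic genes or 11 Notch and BMP genes tested passed in edgeR, and at an unadjusted p under 0.05, 3 identity genes and 1 immune traffic gene were higher in female nuclei. Without Tg female 1, 4 identity genes were higher in male nuclei: Ccl21a (edgeR log2 difference -1.03, adjusted p = 9.25e-06), Lyve1 (adjusted p = 0.00244), Fgl2 (-0.89) and Thy1 (-2.16), and so was Bmpr2. Without Tg female 2, Ccl21a was instead higher in female nuclei (edgeR log2 difference 0.81, adjusted p = 1.17e-05) and Stab2 higher in male nuclei (-1.05, adjusted p = 0.0268). The sign of the Ccl21a difference therefore turned with the female library left out. Fibroblast markers were all 6 of 6 tested on the female side, with a median log2 difference of 0.61 and none called, and their part in the sex results was not tested.

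Whether the sex difference was another in lymphatic than in capillary nuclei was tested as a sex-by-class term over 11851 genes, and 2 passed (0.0169%; 667 at an unadjusted p under 0.05). Gm44148, a long non-coding RNA gene on chromosome 6, was at 72.9, 156, 270, 51.9 and 60.4 CPM in lymphatic and 167, 155, 178, 129 and 154 CPM in capillary nuclei, and the female minus male difference was larger in lymphatic nuclei by 1.64 on the log2 scale (SE 0.292, edgeR adjusted p = 0.0345). Its UMIs were spread over 54 and 35 nuclei in the Tg female libraries, and with capped nuclei the term was 1.47 (edgeR adjusted p = 0.00444). The other was Kcnd2 (-3.36, SE 0.494, edgeR adjusted p = 0.00304), whose term did not pass with capped nuclei (-1.49, adjusted p = 0.803). Fkbp5, not called on uncapped counts, passed with capped nuclei (1.01, edgeR adjusted p = 0.00658), its male excess being smaller in lymphatic than in capillary nuclei. With at least 10 UMIs in every sum, no gene passed (317 at an unadjusted p under 0.05); Gm44148 then had an adjusted p of 0.115 in edgeR, and Kcnd2 was below that filter.

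With 1 library labelled nTg, genotype had no test. Of 6754 genes, 171 (2.53%) were at least 2-fold above and outside the range of the 4 Tg libraries and 106 (1.57%) below, 4.10% together. Setting each Tg library against the other 4 in the same way gave 3.88%, 9.54%, 3.76% and 4.32%. The library labelled nTg female 1 thus lay within the range of the Tg libraries, and Tg female 2 was the furthest apart. Tg female 2 also held the fewest lymphatic UMIs (255514, against 370187 to 577799 elsewhere), and the part of depth was not tested. The 5 genes with the highest ratios rested on 1 to 3 nuclei each: all 16 Tuft1 UMIs, 15 of 16 for Grip1, 9 of 10 for Gm16226 and 26 of 27 for H2-Eb1 lay in 1 nucleus each, and the 10 of Mgl2 lay in 3. On the lower side, Hbb-bs, a haemoglobin gene, was at 10.8 CPM (4 UMIs) against 63.0 ± 21.99 CPM (SD, n = 4), Gm15345 at 8.10 CPM (3 UMIs) against 89.7 CPM and Gm20470 at 2.70 CPM (1 UMI) against 35.0 ± 11.3 CPM, with Gm5089 next. Rbfox1 was at 16.2 against 123 ± 136 CPM, where 148 of 188 UMIs in Tg female 1 lay in 1 nucleus.

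Ccna2 itself gave 18 UMIs in 10 lymphatic nuclei, at 8.10, 0, 15.7, 3.84 and 22.7 CPM (3, 0, 4, 2 and 9 UMIs), against 17.6, 1.10, 13.9, 23.5 and 37.0 CPM in capillary nuclei, and was below the filter of the test. The order of the libraries was that of neither the labels nor the cardiomyocyte-rich nuclei throughout, though Tg female 1 was lowest in each. Cyclin A2 drives DNA synthesis and entry into mitosis. At least 2 of 6 cell cycle genes were detected in 7 of 735 lymphatic nuclei (0.952%, exact 95% interval 0.384 to 1.95) and in 29 of 5477 capillary nuclei (0.529%, 0.355 to 0.760). The intervals cover counting error only, the nuclei are pooled over 5 libraries and no test was made.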

How the data were processed

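Nuclei from homogenised adult hearts were sequenced as 10x Genomics libraries. The authors deposited UMI counts per gene and barcode, made with Cell Ranger 7.0.0 per the file headers, on mm10 (GRCm38) per the submitters' processing notes. The counts are raw whole numbers. Whether introns were counted is not given in the sources used here. The retained libraries held between 25045167 and 38593706 UMIs. Gene coordinates are from GENCODE M21.

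Counts were summed per library and class, with lymphatic nuclei taking priority over the other classes, and divided by the class total to give CPM. Doublets were called with scrublet in scanpy 1.11.5 and kept in the main values. The caller found none in Tg female 2, so the alternative without doublets removed the top 5% of scores there. Sex was tested with edgeR 4.0.16 (R 4.3.3; filterByExpr, TMM, quasi-likelihood, Benjamini-Hochberg) on the 4 Tg libraries. On simulated counts of 7726 genes for this comparison, 28% of 2-fold and 87% of 4-fold changes were recovered, with 1.71% false calls. DESeq2 1.42.0 was an alternative. Shares were compared by exact permutation. The alternative that capped each nucleus at 3 UMIs a gene and the other denominators of the share were chosen after seeing the data.

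The members and gene lists were chosen with earlier results of these data known. Named genes were, by sex, the 5 highest and 5 lowest called genes without overlap, the sex-linked list and Ccna2. By class they were the 12 and 8 genes with the widest gap to capillary nuclei and the 6 and 6 to endocardial nuclei, at 50 CPM or more. For the nTg library they were the 5 highest and 5 lowest ratios, and for the lists, genes at 100 CPM or more or with a defining lymphatic role. Others named (Zbtb16, Kcnd2, Fkbp5 and Gm44148 by sex, Wdr17 and the genes of the Lyve1 split) were chosen after their values were seen. The matrices of 3 libraries were not used, and a split of the members by valve genes is not reported here.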

Additional observations from a re-analysis of the deposited data

Results flagged for a closer look

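The test of sex by class put 2 genes past the threshold, where the female minus male difference was another in lymphatic than in capillary nuclei. For Kcnd2 the difference between the classes was -3.36 on the log2 scale (edgeR adjusted p = 0.00304, 2 libraries per sex). A single nucleus held 21 of 46 Kcnd2 UMIs in Tg male 1 and 24 of 27 in Tg male 2, and the term did not pass with each nucleus capped at 3 UMIs a gene. For Gm44148 it was 1.64 (edgeR adjusted p = 0.0345), with 1.47 under the cap. When every sum had to hold at least 10 UMIs, Gm44148 did not pass (1.59, edgeR adjusted p = 0.115) and Kcnd2 was below the filter and not tested.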

How the results depend on the processing

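The count of genes called by sex (10) was 54 with a replicate block, 22 with the nTg library and a genotype term, 60 without a filter, 16 with doublets removed, 16 with DESeq2, 19 with capped nuclei, and 5 to 141 when 1 library was left out. Same-numbered female and male libraries share only a number (correlation of their deviations 0.000109). The sex-by-class count (2) was 0 with at least 10 UMIs in every sum, 8 with capped nuclei and 22 to 43 when 1 library was left out. Genes separating lymphatic from capillary nuclei (1752) and from endocardial nuclei (1463) were 896 and 847 at 4-fold and ran from 1854 to 1958 and from 1642 to 1755 without 1 library. Genes apart in the nTg library (277) were 67 at 20 UMIs or more and 515 against the Tg female libraries only. The female minus male share changed sign to 2.00 points among the 3 endothelial classes and lay between -1.54 and 0.0413 points without 1 library. The causes were not tested. With 106 to 206 nuclei a library, a gene of 10 CPM rests on a few UMIs, and 2 libraries per sex limit what the tests can detect.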
